A study of Mus musculus with 3 samples.

Results

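The comparison described here sets the library of mice given ZOL+Ang2 against the library of mice given ZOL alone, across protein-coding genes. The deposited values were taken to be reads per kilobase of exon scaled to the library's total (RPKM), a unit inferred from the values. Genes were taken where this value was at least 1 in either library, which left 10735 of 21995 protein-coding genes (of 54532 genes listed in all). Both groups were mice that had been inoculated with 4T1-DM cells to model metastasis to the dura mater, the tough outer layer of the meninges (the name 4T1 belongs to a murine breast cancer line). On day 12 the dorsal dura was removed and dissociated with collagenase VIII and DNase I, and cells labelled as lacking CD45 while carrying CD31 and podoplanin (PDPN) were profiled. How they were selected is not stated in the labels. The third library of the series, from mice given PBS, was not used in the filter or the scaling. The labels do not spell out ZOL or Ang2, nor give doses, schedules, strain, sex or age, and both groups compared carried the inoculated cells and received ZOL. Each library was 1 pool of 6 mice. No test was possible, no p-value is given, and no difference below can be set against a spread between animals.

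ZOL is a common abbreviation of zoledronate, a bisphosphonate that is taken up by osteoclasts and phagocytes and inhibits farnesyl diphosphate synthase in the mevalonate pathway. Ang2 commonly stands for angiopoietin-2, a ligand of the receptor tyrosine kinase TIE2 (gene Tek) that modulates the signal of angiopoietin-1 on blood endothelium and acts in lymphatic remodelling. Lymphatic vessels of the dura drain fluid and immune cells from the meninges, and their endothelium is usually recognised by PROX1, LYVE1, VEGFR3 (Flt4) and podoplanin on top of CD31.

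Differences are given on the scale of log2 (RPKM + 1), as ZOL+Ang2 minus ZOL, and a gene is called higher or lower where RPKM + 1 differed at least 2-fold. A fold quoted for a single gene is the plain ratio of RPKM, with an exact 95% binomial interval from the reads recovered in both libraries. A gene with 0 reads in 1 library is given a bound against a floor of 3 reads in that library. Where a pair of values is written as 1 against another, the first is ZOL and the second ZOL+Ang2. Intervals and bounds cover counting error only, because the amplified reads carry no molecular identifiers. Recovered reads numbered 16586760 for ZOL and 9204901 for ZOL+Ang2, so a value of 0 allows a higher true level in the latter.

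The defining transcripts did not all follow the label. Prox1 (ENSMUSG00000010175, chr1:190118035-190170714) and Lyve1 (ENSMUSG00000030787, chr7:110850607-110863239) had 0 reads in both libraries, which by counting error allows at most 0.0151 RPKM of Prox1 in ZOL and 0.0305 in ZOL+Ang2. Pecam1, which encodes CD31 (ENSMUSG00000020717, chr11:106654217-106750628), stood at 50.6 RPKM in ZOL and 21.3 in ZOL+Ang2. Pdpn (ENSMUSG00000028583, chr4:143267431-143299564) went the other way, with 24.6 RPKM in ZOL and 70.2 in ZOL+Ang2. Ptprc, which encodes the CD45 that the gate leaves out (ENSMUSG00000026395, chr1:138062861-138175708), was listed at 0.909 RPKM in ZOL and 3.11 in ZOL+Ang2 and was thus 3.42-fold higher (95% interval 3.01 to 3.88). The cells are therefore called by their gate below, and no result here rests on their being lymphatic. In a bulk library, fewer cells of a type and less RNA per cell cannot be told apart.

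Of the genes compared, 2299 (21.4%) were at least 2-fold higher in ZOL+Ang2 and 3563 (33.2%) at least 2-fold lower, and 4873 (45.4%) lay within 2-fold. At least 4-fold differences were found for 778 genes (7.25%) upward and 1483 (13.8%) downward. The median log2 ratio over all genes was -0.15, with quartiles at -1.33 and 0.82, and Spearman's correlation between the libraries across genes, which are not independent replicates, was 0.52. Of the 10735 genes, 6437 reached 1 RPKM in both libraries, 2959 in ZOL alone and 1339 in ZOL+Ang2 alone. A gene that entered through 1 library is bound to be lower in the other, so counts over a list describe these libraries and are no support for a direction. Each count over a list below is to be read beside the 21.4% higher and 33.2% lower of all genes.

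**Figure D1:**
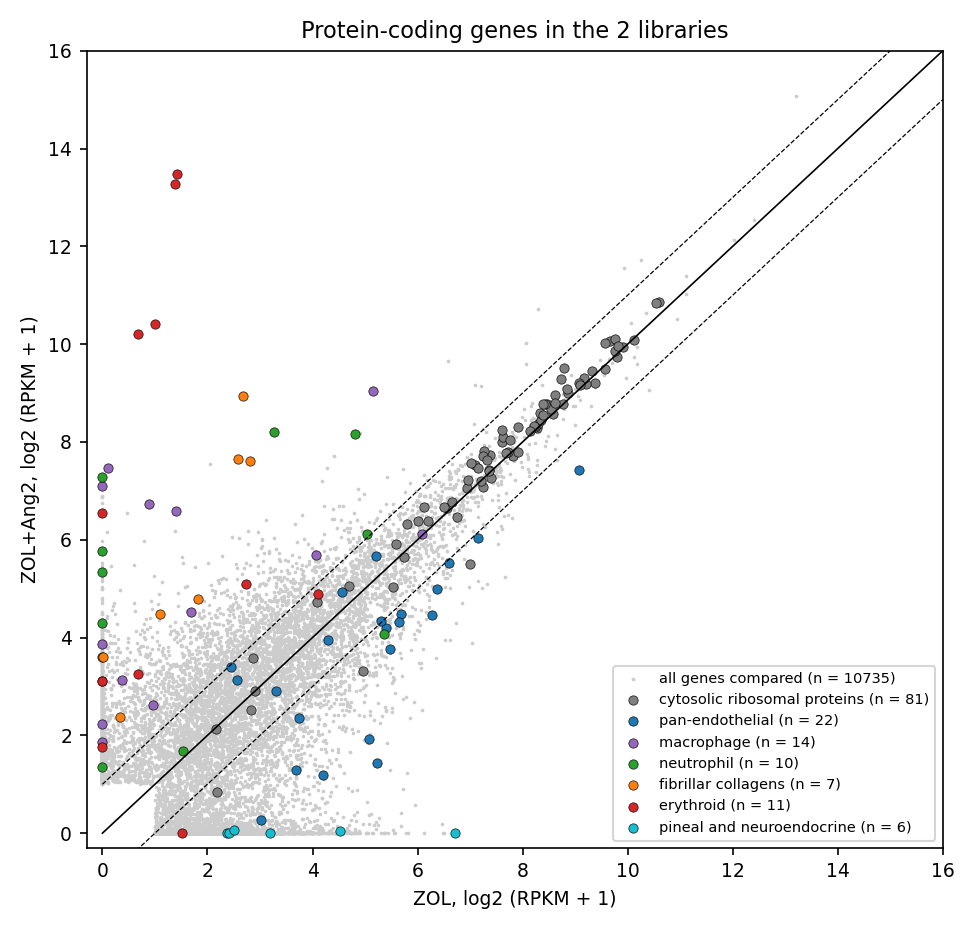
Each point is 1 protein-coding gene, with log2 (RPKM + 1) in ZOL on the x axis and in ZOL+Ang2 on the y axis. Coloured points are lists of genes, the solid line is equality and the dashed lines are 2-fold. Haemoglobin genes stand at the top left, collagen genes above the lines with most macrophage and neutrophil genes, endothelial genes mostly below them, pineal genes along the floor, and most ribosomal protein genes near the diagonal.

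Agreement between the libraries depended on level. Below a mean of 1 RPKM, 78.8% of 1121 genes lay past 2-fold, and the share fell through 67.2%, 55.7%, 41.2% and 26.0% in the next classes to 9.56% of 251 genes in the class that starts at 100 RPKM. It was 14.5% of the 110 genes in the highest class. Genes listed at 0 in 1 library made up 58.0% of the lowest class and 3.03% of the class from 10 to 30 RPKM, with none at or above 100. Among 1768 genes of at least 20 RPKM in ZOL, 48 were listed at 0 in ZOL+Ang2, and among 1900 such genes in ZOL+Ang2, 25 were listed at 0 in ZOL.

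**Figure D2:**
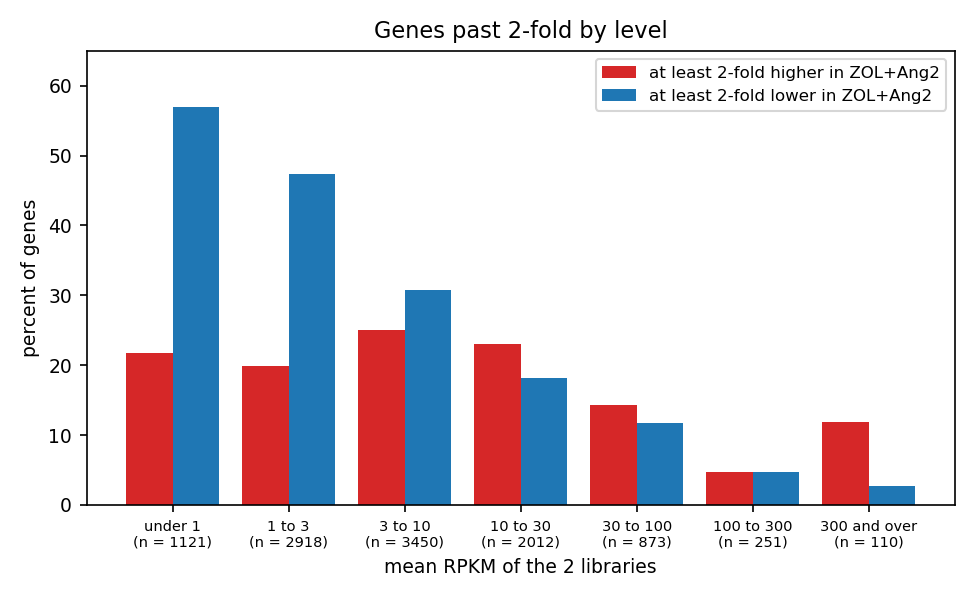
The x axis gives classes of mean RPKM over the 2 libraries with the number of genes in each, and the y axis the percent of each class that was at least 2-fold higher (red) or lower (blue) in ZOL+Ang2. The lower calls outnumber the higher ones in the classes under 10 RPKM, and both shares are smaller in the classes above 30 RPKM than in those below.

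Endothelial genes were mostly lower in ZOL+Ang2. All 22 pan-endothelial markers were compared, of which 0 were at least 2-fold higher and 15 at least 2-fold lower (68.2%, against 33.2% of all genes), with a median log2 ratio of -1.27. Their summed level was 1370.2 RPKM in ZOL and 552 in ZOL+Ang2. Claudin-5 (Cldn5, the dominant claudin of endothelial tight junctions; ENSMUSG00000041378, chr16:18776847-18778262) held the largest share of that sum, with 539 RPKM in ZOL and 172 in ZOL+Ang2, and was 3.13-fold lower (95% interval 3.01 to 3.26). The adhesion molecule Icam2 stood at 36.3 against 1.7 RPKM (21.3-fold lower), the C-type lectin Clec14a at 32.9 against 2.78 RPKM and the guidance receptor Robo4 at 17.3 against 1.27 RPKM. The ETS factor Erg, which maintains endothelial identity, had 7.14 RPKM in ZOL and 0.197 in ZOL+Ang2 and was 36.3-fold lower (95% interval 18.3 to 84.4). Von Willebrand factor (Vwf), stored in the granules of endothelium, stood at 43.7 RPKM in ZOL and 12.6 in ZOL+Ang2. The other 7 markers lay within 2-fold, on both sides of equality. The decoy VEGF receptor Flt1 had 22.5 against 29.5 RPKM, the main VEGF receptor Kdr 18.6 against 14.4 RPKM, VE-cadherin (Cdh5) 8.9 against 6.55 RPKM and the SOXF factors Sox7 and Sox17 4.9 against 7.78 RPKM and 4.45 against 9.56 RPKM. Their ratios ran from -3.79 for Icam2 to 0.95 for Sox17 on the log2 scale.

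Blood endothelial markers differed in both directions. Of 20 such genes 17 were compared, with 2 higher and 9 lower (52.9%) and a median of -1.42. The median log2 ratio of the list blood endothelial was -0.44 with a pseudocount of 5 RPKM and -0.47 with no filter on low values. The atypical chemokine receptor Ackr1, a marker of venules, stood at 57.4 RPKM in ZOL and 12.4 in ZOL+Ang2 (4.62-fold lower, 95% interval 4.0 to 5.36), and the selectins Sele and Selp at 6.15 and 3.57 RPKM in ZOL and 0 reads in ZOL+Ang2. Carbonic anhydrase 4 (Car4), a capillary enzyme, went from 26.3 RPKM to 0 reads and was at least 202-fold lower. The members of highest level, Ly6a, Ly6c1 and Plvap, stayed within 2-fold, whereas the abundant glucose carrier Slc2a1 was lower at 184 against 59.6 RPKM. The surface antigen Ly6a had 339 against 429 RPKM, its relative Ly6c1 273 against 200.3 RPKM, and Plvap, which forms the diaphragms of fenestrae, 217 against 161 RPKM. The venous factor Nr2f2 had 2.73 against 4.0 RPKM. The arterial ligand Efnb2 and the kinase Bmx were the 2 members above 2-fold, with 0.764 against 4.89 RPKM and 1.24 against 7.39 RPKM.

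The lymphatic list was sparsely expressed. Of 18 genes 13 were compared and 5 (Prox1, Lyve1, Reln, Maf and Nts) lay under the filter in both libraries. Among those compared, 3 were higher and 4 lower, shares of 23.1% and 30.8% that are close to those of all genes. Flt4, which encodes VEGFR3, the receptor of VEGF-C (ENSMUSG00000020357, chr11:49609263-49652739), stood at 5.71 RPKM in ZOL and 2.16 in ZOL+Ang2 and was 2.64-fold lower (95% interval 2.27 to 3.07). The lymphatic chemokine Ccl21a is annotated as near-identical copies, between which reads cannot be assigned with certainty. Its copy on chromosome 4, used in the list counts, had 8.5 RPKM in ZOL and 3.33 in ZOL+Ang2, and a copy of the same name on a scaffold outside the assembled chromosomes had 8.41 RPKM in ZOL and 0 reads in ZOL+Ang2. The scavenger receptor Stab1, shared with macrophages, stood at 9.82 against 4.5 RPKM and the VEGF co-receptor Nrp2 at 7.86 against 5.82 RPKM. Mmrn1 and the valve factor Foxc2 were low and nearly level, with 1.3 against 1.53 RPKM and 2.88 against 3.63 RPKM. The 3 higher genes were Pdpn, Thy1 at 0 against 1.11 RPKM and Fgl2 at 0 against 6.8 RPKM. The transcription factor Tbx1 was listed at 6.71 RPKM in ZOL and 0 in ZOL+Ang2.

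The angiopoietin receptors were lower in ZOL+Ang2. TIE2 (Tek, ENSMUSG00000006386, chr4:94739289-94874976) stood at 12.3 RPKM in ZOL and 4.14 in ZOL+Ang2 and was 2.98-fold lower (95% interval 2.59 to 3.44), and its partner TIE1 (Tie1, ENSMUSG00000033191, chr4:118471191-118490061) at 11.8 RPKM in ZOL and 1.44 in ZOL+Ang2, 8.19-fold lower (95% interval 6.56 to 10.4). Both genes also belong to the pan-endothelial list. Of the ligands, Angpt2 itself (ENSMUSG00000031465, chr8:18690263-18741562) had 7.36 RPKM in ZOL and 0.555 in ZOL+Ang2 and was 13.3-fold lower (95% interval 8.84 to 20.9), whereas Angpt1 (ENSMUSG00000022309, chr15:42424723-42676977), made mostly by mural and stromal cells, had 0.884 RPKM in ZOL and 5.72 in ZOL+Ang2 and was 6.46-fold higher (95% interval 5.2 to 8.09). The labels do not say in what form Ang2 was given. The phosphatase Ptprb, which dephosphorylates TIE2, stood at 13.8 against 9.85 RPKM, and Foxo1, the factor restrained by TIE2 signalling, at 2.33 against 3.17 RPKM. The 250 bases before the Tie1 start are shown because ETS factors, of which Erg is 1, are known to bind such endothelial promoters, with the ETS-type letters AGGAAG and CGGAAG in capitals on either strand (RefSeq, GRCm38.p6).
Tie1 (chr4:118489850-118490099, minus strand): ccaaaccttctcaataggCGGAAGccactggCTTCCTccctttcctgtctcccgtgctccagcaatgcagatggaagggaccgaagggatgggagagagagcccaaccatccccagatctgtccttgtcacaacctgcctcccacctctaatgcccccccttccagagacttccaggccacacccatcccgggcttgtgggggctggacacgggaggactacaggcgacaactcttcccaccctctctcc
This window held 1 match to each motif, and the windows of Clec14a and Cldn5 held 0. Of the 11 pan-endothelial genes with a window, 6 held AGGAAG and 1 CGGAAG, beside 29.1% and 13.8% of all 27025 windows. Over the 8446 windows of genes compared the shares were 27.8% and 25.7%. Of the 11 genes in the angiopoietin list 7 were compared, 1 higher and 3 lower. The VEGF list (7 compared, 2 higher and 1 lower) held its 2 higher genes among the ligands, Vegfb with 2.87 against 13.7 RPKM and Pgf with 2.94 against 7.52 RPKM, while Vegfc and Vegfd were listed at 0 in both libraries and Vegfa lay under the filter.

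Barrier transporters of endothelium were mostly lower. Of 20 barrier transporters 19 were compared, with 1 higher and 11 lower (57.9%) and a median of -1.61. The median log2 ratio of the list barrier transporters was -0.92 with a pseudocount of 5 RPKM and -0.35 with a mean RPKM of at least 10. The glucose carrier Slc2a1 stood at 184 against 59.6 RPKM (3.08-fold lower, 95% interval 2.95 to 3.22), the glutamine carrier Slc38a5 at 57 against 4.11 RPKM, the drug efflux pump Abcb1a at 22.7 against 3.38 RPKM and the lipid carrier Mfsd2a at 12.2 against 1.55 RPKM. The thyroid hormone carrier Slco1c1 went from 13.7 RPKM to 0 reads, and the transferrin receptor Tfrc from 9.53 to 0.0965 RPKM. Abcg2, another efflux pump, had 19.4 against 22.4 RPKM, and the amino acid carrier subunit Slc3a2 had 149 against 114 RPKM. Among caveolar genes (12 compared, 0 higher and 5 lower), Cavin2 was the lowest with 27.7 against 0.837 RPKM, caveolin-1 (Cav1) had 27.5 against 9.9 RPKM, and Cavin3 131 against 127 RPKM. Junction genes included 3 higher and 8 lower of 23 (13% and 34.8%), a lower share close to the 33.2% of all genes. Occludin (Ocln) went from 12.9 RPKM to 0 reads and Jam2 from 12.2 to 2.48, whereas the catenins Ctnna1 and Ctnnb1, which every adherens junction uses, stood at 74.4 against 78.6 RPKM and 49.2 against 55.2 RPKM.

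**Figure D3:**
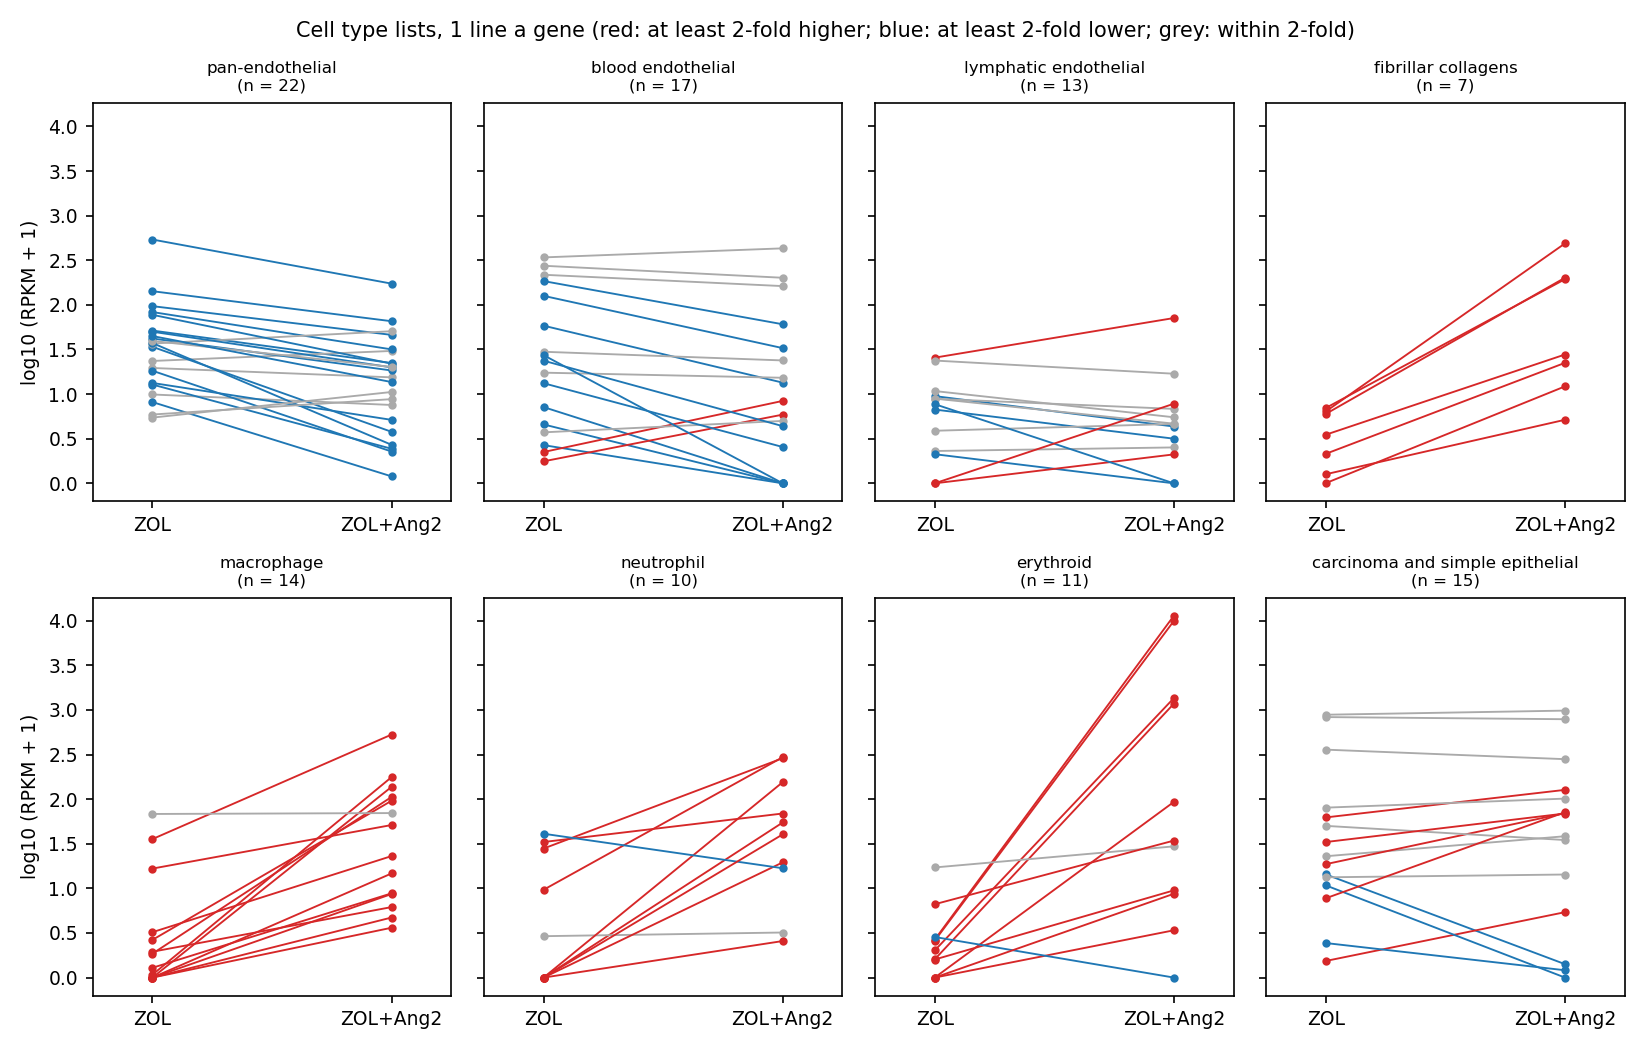
Each line joins 1 gene's log10 (RPKM + 1) in ZOL (left) and in ZOL+Ang2 (right) for 7 lists of cell type markers and the fibrillar collagens, with the number of genes compared above each panel. Red lines are genes called higher in ZOL+Ang2 and blue lines genes called lower. Most lines fall in the pan-endothelial panel, those of the collagens all rise, as do most in the macrophage, neutrophil and erythroid panels, and the other panels hold lines in both directions.

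Fibrillar collagen genes were higher in ZOL+Ang2. The 7 fibrillar collagen genes compared were all at least 2-fold higher (against 21.4% of all genes), with a median of 3.60, and 2 of them entered through ZOL+Ang2 alone. With a pseudocount of 5 RPKM the median log2 ratio of the list fibrillar collagens was 2.10. The type I chains, which form the main fibres of dura, bone and skin, stood at 5.41 RPKM in ZOL and 488 in ZOL+Ang2 for Col1a1 (ENSMUSG00000001506, chr11:94936224-94953042) and 5.01 against 201 RPKM for Col1a2 (ENSMUSG00000029661, chr6:4504814-4541544), so that Col1a1 was 90.2-fold higher (95% interval 84.2 to 96.7) and Col1a2 40-fold higher (95% interval 38 to 42.2). The type III chain Col3a1, of loose and healing tissue, had 6.0 RPKM in ZOL and 193 in ZOL+Ang2 (32.2-fold higher). The type V chains, which set fibre diameter, were lower in level, with 1.14 against 21.4 RPKM for Col5a1, 2.51 against 26.8 RPKM for Col5a2 and 0.0062 against 11.2 RPKM for Col5a3. The remaining 4 fibrillar genes, Col2a1, Col11a2, Col24a1 and Col27a1, were under the filter in both libraries. The list of other interstitial collagens held 4 higher and 4 lower genes of 9. The higher ones were 3 type VI chains, with Col6a1 at 3.11 against 186 RPKM, Col6a2 at 0.0659 against 70 RPKM and Col6a3 at 0.0777 against 16.5 RPKM, and Col12a1 at 0.383 against 8.51 RPKM. The lower ones were a further type VI chain, Col6a6, with 2.78 RPKM in ZOL and 0 reads in ZOL+Ang2, Col9a3 with 5.45 RPKM and 0 reads, Col16a1 with 5.63 against 1.86 RPKM and Col23a1 with 6.88 against 0.52 RPKM.

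Enzymes that modify collagen were mixed (9 higher and 6 lower of 21). The crosslinking oxidases Lox and Loxl1 stood at 5.8 against 59.2 RPKM and 6.75 against 39.2 RPKM and the prolyl hydroxylases P4ha1 and P3h1 at 2.2 against 17 RPKM and 0.187 against 13.8 RPKM. Crtap, a partner of P3H1 in the same complex, went the other way with 48.7 against 18.9 RPKM, as did Plod3 with 8.43 against 2.21 RPKM. The procollagen enhancer Pcolce, the most abundant of the group, was level at 103 against 104 RPKM. Basement membrane genes, many of them made by endothelium, lay mostly within 2-fold (11 of 18, with 4 higher and 3 lower). The type IV chains Col4a1 and Col4a2, which are transcribed from a shared promoter, stood at 30.8 against 24.8 RPKM and 32.1 against 43.5 RPKM, laminin Lamb1 at 24.8 against 23.3 RPKM and Lamc1 at 15.9 against 1.07 RPKM. The collagen-binding glycoprotein Sparc was the most abundant, with 265 RPKM in ZOL and 1035 in ZOL+Ang2 (3.9-fold higher, 95% interval 3.84 to 3.97).

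Matricellular and elastic fibre genes held 17 higher and 5 lower of 34 (50.0% and 14.7%), with 8 entering through ZOL+Ang2 alone. The microfibril protein Mfap5 had 0.153 RPKM in ZOL and 24.2 in ZOL+Ang2 and was 158-fold higher (95% interval 92 to 298). Periostin (Postn) stood at 0.922 against 23.1 RPKM, fibrillin-1 (Fbn1) at 1.1 against 19.6 RPKM and the CCN proteins Ccn2, Ccn4 and Ccn5 at 17.1 against 146 RPKM, 0.729 against 18.5 RPKM and 0.724 against 61.6 RPKM. Fibronectin (Fn1) lay within 2-fold at 65.5 against 121 RPKM, as did the abundant matrix Gla protein (Mgp) at 292 against 359 RPKM. Vitronectin (Vtn) was the exception among abundant members, with 46.7 RPKM in ZOL and 0 reads in ZOL+Ang2. In the proteoglycan list (9 higher and 4 lower of 18), decorin (Dcn) had 20.3 against 55.7 RPKM, biglycan (Bgn) 12.9 against 89.5 RPKM, lumican (Lum) 5.83 against 28.6 RPKM and fibromodulin (Fmod) 8.78 RPKM against 0 reads. Among 16 dural and arachnoid fibroblast markers compared of 21, 10 were higher and 3 lower (62.5% and 18.75%, against 21.4% and 33.2% of all genes). The 3 lower ones, Igfbp6, Ptgds and Slc13a4, stood at 18.3, 5.3 and 4.83 RPKM in ZOL and 0 reads in ZOL+Ang2, while Dpt, Pi16 and Igf2 were listed at 0 in both. The fibroblast list summed to 534 RPKM in ZOL and 1661 in ZOL+Ang2. It shares Col1a1, Col1a2, Col3a1 and Col6a1 with the collagen lists above. These genes held most of its sum in ZOL+Ang2 and little of it in ZOL, so the sum is no separate result. The part of fibroblast RNA in the matrix differences was not tested.

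Proteases that cut matrix were among the largest single differences. Collagenase-3 (Mmp13, ENSMUSG00000050578, chr9:7272514-7283331) had 0 reads in ZOL and 3358 in ZOL+Ang2 (107 RPKM, at least 2259.6-fold higher), and gelatinase A (Mmp2) had 0.376 against 92.6 RPKM (246-fold higher, 95% interval 172 to 366). Stromelysin-1 (Mmp3) stood at 68.7 against 158 RPKM, the membrane-type protease Mmp14 at 14.3 against 17.6 RPKM and Mmp9 at 39.9 against 15.8 RPKM, in the opposite direction. The inhibitor Timp1 was higher, with 94.6 RPKM in ZOL and 800.2 in ZOL+Ang2 (8.46-fold higher, 95% interval 8.06 to 8.89), whereas Timp2 and Timp3 had 40 against 41.8 RPKM and 12.4 against 16.8 RPKM and Timp4 2.02 RPKM against 0 reads. Serpinf1, which encodes the antiangiogenic factor PEDF, had 29 against 291 RPKM. The list as a whole held 14 higher and 7 lower of 31 (45.2% and 22.6%, against 21.4% and 33.2% of all genes).

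Mural and skeletal markers differed in both directions. Of 11 mural genes compared, 3 were higher and 5 lower. The pericyte receptor Pdgfrb had 2.65 against 17.2 RPKM and the proteoglycan Cspg4 0.0779 against 3.9 RPKM, both higher in ZOL+Ang2. Smooth muscle actin (Acta2) had 202 against 36.7 RPKM and the pericyte gene Rgs5 15.1 against 10 RPKM, with 0 reads in ZOL+Ang2 for the contractile genes Myl9 and Myh11 (90 and 3.63 RPKM in ZOL). Among bone cell genes (7 higher and 3 lower of 11), the osteoblast enzyme Alpl stood at 3.75 against 21.5 RPKM, osteocalcin (Bglap) at 0.137 against 5.1 RPKM, bone sialoprotein (Ibsp) at 0 and 2.93 RPKM, and osteopontin (Spp1), also made by macrophages and carcinoma cells, at 1223 against 3382 RPKM. The osteocyte matrix protein Dmp1 went from 66.1 to 9.35 RPKM and the osteoblast factor Sp7 from 1.67 RPKM to 0 reads. Sost and Mepe were listed at 0 in both libraries.

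The largest ratios of all were those of haemoglobin genes. Hba-a1 (alpha globin, ENSMUSG00000069919, chr11:32283511-32284465) had 32 reads in ZOL and 108164 in ZOL+Ang2, or 1.66 against 11358 RPKM, and was 6823-fold higher (95% interval 4833 to 9976). Hbb-bs (adult beta globin, ENSMUSG00000052305, chr7:103826534-103828096) had 1.59 against 9932 RPKM and was 6227-fold higher (95% interval 4336 to 9299). Their close copies Hba-a2 and Hbb-bt stood at 1.01 against 1356 RPKM and 0.601 against 1173 RPKM, and reads may be split between copies. Alas2, the erythroid enzyme that begins haem synthesis (ENSMUSG00000025270, chrX:150547375-150570638), had 0 reads in ZOL and 2595 in ZOL+Ang2 (92.1 RPKM), at least 1746-fold higher. The membrane anion exchanger Slc4a1 had 0 against 2.39 RPKM and the red cell enzyme Bpgm 5.64 against 33.3 RPKM. Of 11 erythroid genes compared, 9 were higher and 1 lower (81.8% and 9.09%, against 21.4% and 33.2% of all genes), with 5 entering through ZOL+Ang2 alone. The exception was Klf1, the erythroid transcription factor, with 1.85 RPKM in ZOL and 0 reads in ZOL+Ang2, and Epor, Rhag and Car1 were listed at 0 in both. The list summed to 29.1 RPKM in ZOL and 23991 in ZOL+Ang2.

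Because Hba-a1, Hbb-bs and Alas2 were all far higher in ZOL+Ang2, the 250 bases before their start sites are shown, from RefSeq on GRCm38.p6, with GATA motifs (AGATAA or TGATAA) and the CACCC box in capitals on either strand. These are the letters that GATA1 and KLF1, the main erythroid factors, are known to bind.
Hba-a1 (chr11:32283422-32283671, plus strand): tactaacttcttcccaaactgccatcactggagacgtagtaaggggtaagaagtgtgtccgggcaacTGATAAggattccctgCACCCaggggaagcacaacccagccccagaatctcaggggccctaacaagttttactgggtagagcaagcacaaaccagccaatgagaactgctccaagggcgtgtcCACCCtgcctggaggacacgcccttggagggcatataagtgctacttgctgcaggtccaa
Hbb-bs (chr7:103827929-103828178, minus strand): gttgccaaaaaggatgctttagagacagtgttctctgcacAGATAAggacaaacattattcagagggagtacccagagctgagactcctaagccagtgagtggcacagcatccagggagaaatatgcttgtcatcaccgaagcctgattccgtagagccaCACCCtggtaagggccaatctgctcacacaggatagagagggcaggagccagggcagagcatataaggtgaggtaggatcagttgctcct
Alas2 (chrX:150547167-150547416, plus strand): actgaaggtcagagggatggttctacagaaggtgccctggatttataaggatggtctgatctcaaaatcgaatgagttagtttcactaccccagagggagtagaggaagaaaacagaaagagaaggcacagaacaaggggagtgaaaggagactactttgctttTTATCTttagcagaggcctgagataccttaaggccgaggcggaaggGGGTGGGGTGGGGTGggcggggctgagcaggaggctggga
Each of the 3 windows held 1 GATA motif, and they held 2, 1 and 3 CACCC boxes in the order printed. Of the 11 erythroid genes compared, 7 had a window in the table used, of which 2 held AGATAA, 3 TGATAA and 6 CACCC. Over all 27025 such windows the shares were 10.2%, 8.14% and 51.4%, and over the 8446 windows of genes compared 5.80%, 3.98% and 56.2%. A match is a description of the letters and not a bound site. The RefSeq start sites lie inside the GENCODE gene bounds given, so the windows overlap those bounds for Hba-a1, Hbb-bs, Alas2 and Tie1.

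Macrophage genes were higher almost throughout. Of 14 compared, 13 were higher (92.9%, against 21.4% of all genes) and 0 lower, but 9 of the 14 entered through ZOL+Ang2 alone. The complement C1q chains, made by tissue macrophages, were at or near 0 in ZOL, with C1qa at 0 and 136 RPKM, C1qb at 0.0776 against 175 RPKM and C1qc at 0.853 against 105 RPKM. Lysozyme (Lyz2) had 34.7 against 528 RPKM (15.2-fold higher, 95% interval 14.3 to 16.2) and the signalling adaptor Tyrobp 1.65 against 94.8 RPKM (57.6-fold higher). The macrophage receptors Adgre1, Mrc1 and Csf1r had 0.287 against 7.79 RPKM, 0.948 against 5.17 RPKM and 0 against 2.62 RPKM. Cd14, a lipopolysaccharide co-receptor found beyond macrophages, was level at 67.2 against 68.8 RPKM, and Cd68 and Ms4a7 were listed at 0 in both libraries. The list summed to 124 RPKM in ZOL and 1221 in ZOL+Ang2, beside a Ptprc level of 0.909 against 3.11 RPKM.

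Neutrophil genes were mostly higher, with 8 higher and 1 lower of 10 compared, 5 of which were listed at 0 in ZOL. Among all genes compared, 21.4% were higher and 33.2% lower. The lower member of the neutrophil list was Mmp9, whose values are given above with the proteases. The alarmins S100a8 and S100a9 stood at 8.64 against 294 RPKM and 26.9 against 287 RPKM (34-fold higher and 10.6-fold higher). The granule proteins Camp (ENSMUSG00000038357, chr9:109847379-109849617) and Ngp had 0 reads in ZOL and 154 and 53.7 RPKM in ZOL+Ang2, and Ly6g, the surface antigen of neutrophils, 0 and 39.3 RPKM. Elane and Mpo, granule proteases of early precursors, lay under the filter in both. Lcn2, shared with carcinoma cells, had 32.1 against 68 RPKM. Of 15 genes in the lymphocyte list, 13 were found among protein-coding genes, and none of these reached 1 RPKM in either library. The other 2 were not examined. The granzymes Gzmc and Gzme, cytotoxic proteases of a cluster of near-identical genes, had 0 reads in ZOL and 116 and 117 RPKM in ZOL+Ang2, beside 0 reads in both libraries for Gzma, Gzmb, Nkg7 and Cd8a. Mast cell and basophil genes were few, with Mcpt8 at 5.12 against 19 RPKM and Cpa3, Tpsb2 and Cma1 at 0 in both. The part of leukocyte and red cell RNA in other differences was not tested.

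Genes of the pineal gland, which lies against the dorsal dura, were detected in ZOL and listed at or near 0 in ZOL+Ang2. Of 6 genes compared, all 6 were lower, and all 6 entered through ZOL alone. Chromogranin B (Chgb, a secretory granule protein; ENSMUSG00000027350, chr2:132781278-132795079) had 6755 reads (104 RPKM) in ZOL and 0 in ZOL+Ang2, at least 1115-fold lower. Tph1, the first enzyme of melatonin synthesis, stood at 22 against 0.0276 RPKM, the factor Crx at 8.15 against 0 RPKM and arrestin Sag at 4.7 against 0.0479 RPKM. Aanat and Asmt, which complete melatonin synthesis, were listed at 0 in both libraries. Fast muscle genes were also found mainly in ZOL, with Mylpf at 19.4 against 0.803 RPKM and Tnni2 at 10.5 against 0 RPKM, while myoglobin (Mb) had 0.821 against 6.11 RPKM and Ckm and Acta1 had 0 reads in both. In the Schwann cell and glial list, S100b and Cnp went from 5.89 and 13.2 RPKM to 0 reads, and Cldn11, a claudin of myelin and of the arachnoid barrier, had 8.56 against 23 RPKM. The part of RNA from these tissues in other differences was not tested.

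Carcinoma and simple epithelial genes were present in both libraries with like sums, while single genes differed in both directions. Of 15 compared, 5 were higher and 3 lower, with 7 within 2-fold and a median of 0.15. Over all genes compared, 45.4% lay within 2-fold, so this list was not more level than the rest. The simple keratins Krt8 and Krt18 stood at 829.9 against 785 RPKM and 882 against 981 RPKM, the secreted protein Wfdc2 at 357 against 279 RPKM and E-cadherin (Cdh1) at 12.3 against 13.3 RPKM. The list summed to 2376 RPKM in ZOL and 2568 in ZOL+Ang2, above the pan-endothelial sum in both libraries. Krt8 and Krt18 held most of both sums, so the sums say little of the other members. Epcam was higher with 61.4 against 126 RPKM, as were the basal keratin Krt14 with 6.75 against 70.3 RPKM and claudin-4 (Cldn4) with 17.7 against 68.6 RPKM. Krt19 was lower, with 13.3 against 0.414 RPKM.

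Most DNA replication and mitosis genes lay within 2-fold. Of those past it more were lower than higher, as over all genes compared (33.2% lower and 21.4% higher). In the DNA replication list 1 gene was higher and 12 lower of 29 (3.45% and 41.4%), and 11 of the 29 entered through ZOL alone. The subunits of the MCM helicase, which act as 1 ring, stood at 10.1 against 12.1 RPKM (Mcm2), 31.4 against 43 RPKM (Mcm4), 35.7 against 28.8 RPKM (Mcm5), 31 against 52.3 RPKM (Mcm6) and 36 against 48.6 RPKM (Mcm7), all within 2-fold, while Mcm3 had 17.3 RPKM in ZOL and 0 reads in ZOL+Ang2. The sliding clamp Pcna went from 60.8 to 0.497 RPKM (122-fold lower, 95% interval 72.8 to 224) and the polymerase subunit Pola2 from 28.7 to 0.0297. The licensing factor Cdt1, the only gene of the list called higher, had 14.1 against 31.2 RPKM. Among 35 mitosis genes 2 were higher and 13 lower (5.71% and 37.1%), a lower share near the 33.2% of all genes. Cyclin A2 (Ccna2) and cyclin B1 (Ccnb1) went from 19.9 and 16.3 RPKM to 0.0835 RPKM and 0 reads, whereas cyclin B2 (Ccnb2), of the highest mean level in the list, had 81.7 against 111 RPKM. The proliferation marker Mki67 stood at 12.1 against 9.44 RPKM, the topoisomerase Top2a at 25.6 against 16.7 RPKM and the mitotic kinase Cdk1 at 31.1 against 23.7 RPKM. The kinases Ttk and Aurkb were the higher pair, with 2.44 against 14.8 RPKM and 7.54 against 25.5 RPKM.

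Cell cycle inhibitors and p53 targets held 10 higher and 5 lower genes of 23 (43.5% and 21.7%). The stress gene Gadd45a had 0.886 against 20.1 RPKM, Sesn2 0 and 10.5 RPKM, and the inhibitor Cdkn1c 1.04 against 10.2 RPKM. Cdkn1a, which encodes p21, the best known target, stayed within 2-fold at 35.7 against 63.8 RPKM, as did Mdm2 at 12.3 against 9.23 RPKM. The death genes Bbc3 and Tnfrsf10b went from 3.42 and 2.78 RPKM to 0 reads, and Btg2 from 60.7 to 22.8 RPKM. Gadd45g, a relative of Gadd45a outside that list, moved opposite to it, from 88.4 RPKM to 0 reads.

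BMP and ID genes were mostly lower. Among 20 compared, 1 was higher and 13 lower, with a median of -1.29, and 10 entered through ZOL alone. With a pseudocount of 5 RPKM the median log2 ratio of the list BMP and ID was -0.52. The receptor ALK1 (Acvrl1, a kinase of endothelium that responds to BMP9) went from 14.1 to 0.020 RPKM and its co-receptor endoglin (Eng) from 82.1 to 30.7. The ligands Bmp4 and Bmp6 went from 8.34 and 5.32 RPKM to 0 reads, and Smad7, an inhibitory SMAD, from 4.84 RPKM to 0 reads. Among the ID genes, direct targets of the pathway, Id1 was lower with 195 against 73.7 RPKM (2.64-fold lower, 95% interval 2.47 to 2.83), while Id2 and Id3 were level at 17.6 against 17.1 RPKM and 217 against 206 RPKM. Bmp5 was the exception, with 0 reads in ZOL and 6.5 RPKM in ZOL+Ang2.

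TGF-beta genes held 6 higher and 3 lower of 16. The activin chain Inhba and the follistatin-like protein Fstl1 stood at 3.93 against 36.1 RPKM and 18.4 against 175 RPKM, and Smad4, the SMAD common to both branches, at 4.18 against 15.6 RPKM. The ligand Tgfb3 went from 10 RPKM to 0 reads, and Tgfb1 lay under the filter in both. Among 18 Wnt genes compared of 36, 5 were higher and 6 lower (27.8% and 33.3%, against 21.4% and 33.2% of all genes). The stromal genes Wnt2 and Sfrp4, a ligand and a soluble antagonist, had 1.85 against 49.4 RPKM and 0 against 44.9 RPKM, and the receptors Fzd1 and Lrp6 2.0 against 0.264 RPKM and 1.61 against 0.112 RPKM. The target Axin2 lay under the filter.

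Notch genes included 4 higher and 6 lower of 17 (23.5% and 35.3%, close to the 21.4% and 33.2% of all genes). The endothelial ligand Dll4 stood at 4.91 against 0.177 RPKM and the endothelial receptor Notch4 at 2.79 against 0.0529 RPKM, the target Hes1 at 42.7 against 26.5 RPKM and the fringe enzyme Lfng at 0.0506 against 13.4 RPKM. In the list of semaphorins, plexins and neuropilins 1 gene was higher and 9 lower of 16. The vascular plexin Plxnd1 had 13.5 against 3.27 RPKM and Sema6a 6.29 RPKM against 0 reads, while the co-receptor Nrp1 had 20.3 against 28.2 RPKM. With a mean of at least 10 RPKM required its median turned from -1.13 to 0.46. In the growth factor list (7 higher and 9 lower of 28), the PDGF receptors Pdgfra and Pdgfrb were higher at 1.18 against 7.7 RPKM and 2.65 against 17.2 RPKM, and the endothelial ligand Pdgfb was lower at 10.7 against 0.0205 RPKM. The most abundant members, the IGF-binding proteins Igfbp7, Igfbp3 and Igfbp4, stood at 403 against 282 RPKM, 143 against 184 RPKM and 139.6 against 140.0 RPKM. Of the ephrin list, the receptor Epha2 had 4.3 against 21.1 RPKM and the venous receptor Ephb4 25.5 against 15.5 RPKM.

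Chemokines moved in both directions (12 higher and 9 lower of 27). Ccl8, Ccl7 and Ccl11, neighbouring genes of the monocyte and eosinophil attractant cluster, had 0 reads in ZOL and 118, 30.8 and 12.1 RPKM in ZOL+Ang2. Ccl2, of the same cluster, went from 14.3 to 0.749 RPKM. The neutrophil attractant Cxcl1 went from 7.7 to 0.50 RPKM while its relative Cxcl2 stood at 5.76 against 7.34 RPKM. Cxcl12 and its receptor Cxcr4 were both lower, at 15.3 against 0.949 RPKM and 4.98 against 0 RPKM, and Ackr3, the scavenging receptor of Cxcl12, was higher at 3.41 against 29.9 RPKM. Of the interferon-inducible ligands, Cxcl9 had 27.7 against 57.5 RPKM and Cxcl10 8.23 RPKM against 0 reads. Complement genes held 10 higher and 5 lower of 18 (55.6% and 27.8%, against 21.4% and 33.2% of all genes). Besides the C1q chains, the proteases C1s1 and C1ra stood at 4.86 against 44.4 RPKM and 11.6 against 23.3 RPKM, their inhibitor Serping1 at 41.8 against 154 RPKM and C3 at 5.56 against 19.8 RPKM, while the regulator Cd59a was lower at 7.91 against 0.188 RPKM.

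Interferon-stimulated genes included 3 higher and 14 lower of 33 (9.09% and 42.4%, against 21.4% and 33.2% of all genes). The guanylate-binding proteins Gbp2, Gbp3 and Gbp7 stood at 190.4 against 77.1 RPKM, 51.3 against 8.28 RPKM and 44.9 against 9.46 RPKM, and the factor Irf1 at 38 against 9.76 RPKM. Irf9, which completes the type I interferon complex, went from 11.7 RPKM to 0 reads. Other members of the same response did not follow. Bst2, Isg15 and Oas1a had 79.8 against 92.1 RPKM, 20.7 against 24.2 RPKM and 29.4 against 28.7 RPKM, and Ifit1 and Ifih1 were higher at 4.18 against 30.5 RPKM and 3.37 against 18.7 RPKM. Of 23 MHC genes 22 lay within 2-fold. The class I genes H2-D1 and H2-K1 stood at 1107 against 852 RPKM and 272 against 214 RPKM, B2m at 2224 against 2699.5 RPKM, and the class II genes H2-Ab1 and Cd74 at 275 against 175 RPKM and 204 against 265 RPKM. Nlrc5, the class I transactivator, was the exception with 2.44 against 12.4 RPKM. The NF-kappaB list held 4 higher and 11 lower of 26 (15.4% and 42.3%). Of its members, Nfkb2 had 26.7 against 4.77 RPKM, Rela 36.2 against 15.1 RPKM, the feedback inhibitor Tnfaip3 4.68 RPKM against 0 reads, and the abundant inhibitor Nfkbia 185 against 120.5 RPKM. Suppressive enzymes of myeloid cells, Arg1 and Arg2, had 0 reads in ZOL and 40.7 and 10.3 RPKM in ZOL+Ang2, and the checkpoint ligand Cd274 had 6.17 against 5.13 RPKM.

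**Figure D4:**
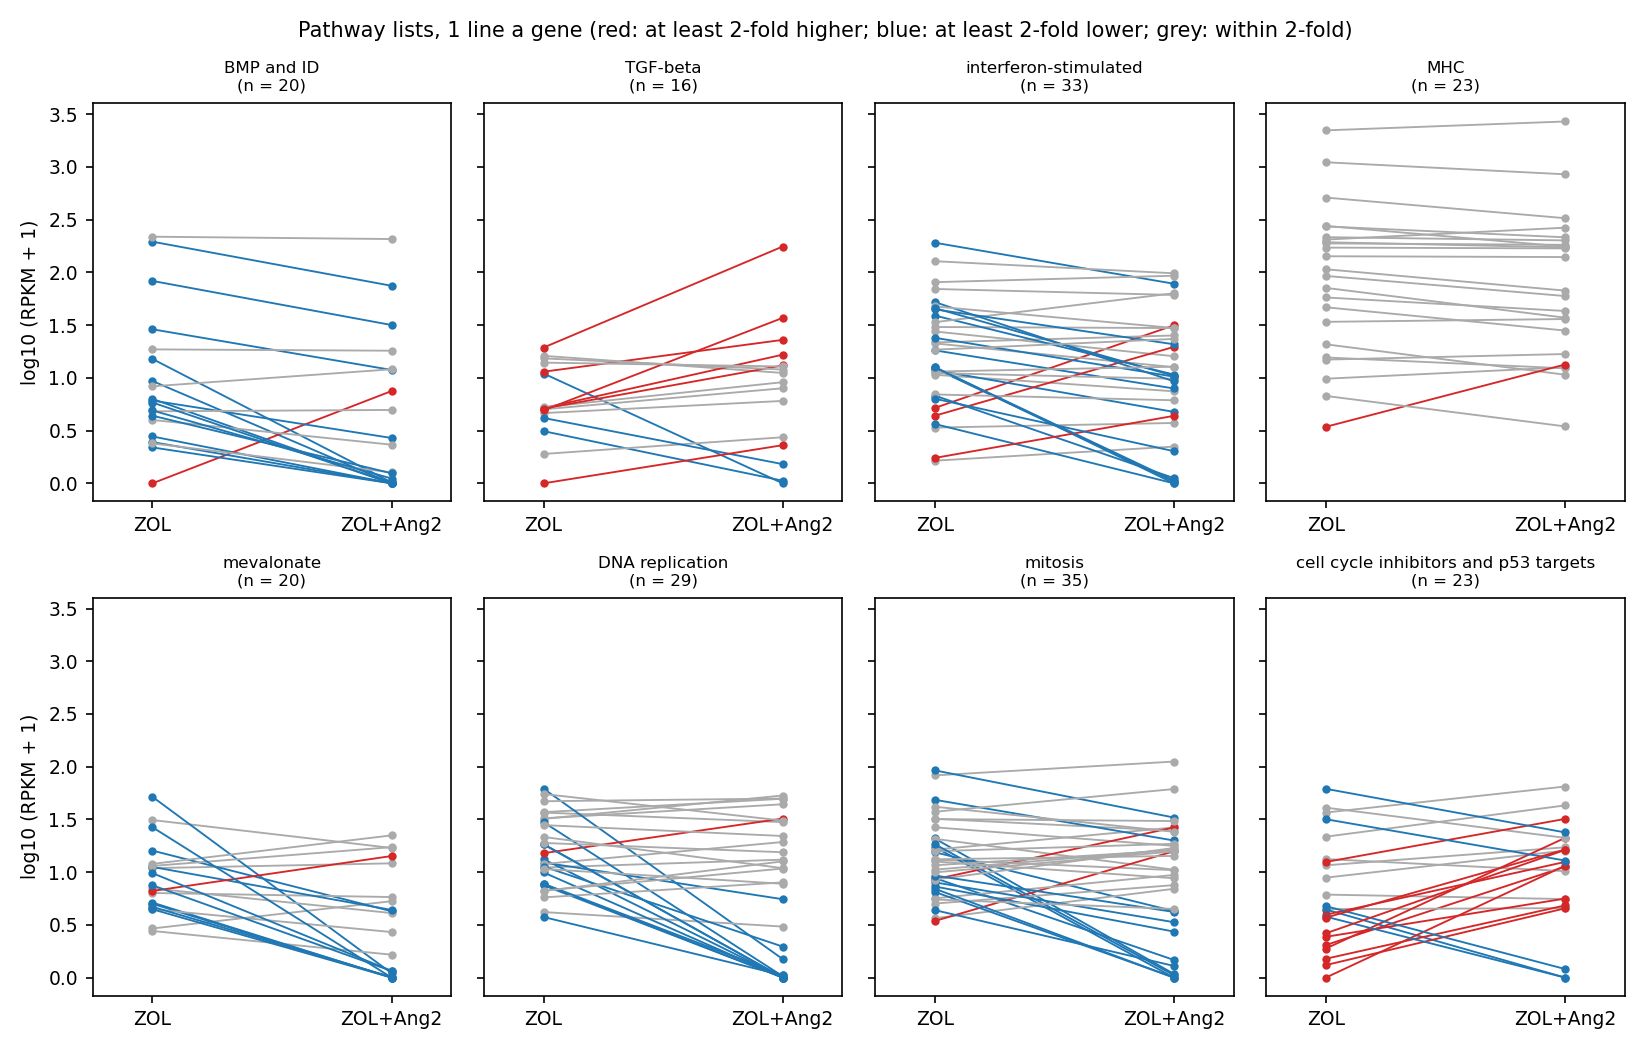
As in the plot of cell type lists, each line joins 1 gene's log10 (RPKM + 1) in ZOL and in ZOL+Ang2, here for 8 pathway lists. The MHC lines run nearly level, the BMP and ID lines mostly fall, and in the mevalonate, replication and mitosis panels a group of lines ends at or near 0 in ZOL+Ang2 beside others that run level.

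Immediate early and shear-responsive genes held 1 higher and 7 lower of 24 (4.17% and 29.2%, against 21.4% and 33.2% of all genes). Fos, Jun and Junb stood at 277 against 158 RPKM, 133 against 116 RPKM and 184 against 111 RPKM, and the shear-responsive factors Klf2 and Klf4 at 9.9 against 8.22 RPKM and 13.5 against 12.9 RPKM. Atf3 was the lowest, with 2323 reads in ZOL and 1 in ZOL+Ang2 (45.6 against 0.0396 RPKM), a 1151-fold lower level with a 95% interval of 206 to 45472. The list of the unfolded protein response held 3 higher and 7 lower of 27 (11.1% and 25.9%), both below the shares of all genes. Its chaperones Hspa5 and Calr had 259 against 272 RPKM and 137 against 189 RPKM. Atf4 with its targets Asns and Chac1 was lower at 51.7 against 17.6 RPKM, 11.4 against 0.0312 RPKM and 10.2 against 0 RPKM. Heat shock genes were within 2-fold for 18 of 23, with Hsp90ab1 at 667 against 559 RPKM and Hspa8 at 526 against 536 RPKM, and the small heat shock genes Hspb1 and Cryab lower at 113 against 25.1 RPKM and 90.7 against 14.4 RPKM.

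The mevalonate pathway holds the target of the bisphosphonate that ZOL commonly denotes, and both groups received ZOL. All 20 genes were compared, with 1 higher and 10 lower (50.0%, against 33.2% of all genes) and a median of -1.12, and 9 entered through ZOL alone. With a mean RPKM of at least 10, the median log2 ratio of the list mevalonate was -0.36. Farnesyl diphosphate synthase (Fdps, ENSMUSG00000059743, chr3:89093588-89101959) was low in both, at 1.77 RPKM in ZOL and 0.648 in ZOL+Ang2 (2.72-fold lower, 95% interval 1.86 to 4.11), and stayed within 2-fold of RPKM + 1. The synthase Hmgcs1 had 9.91 against 11.1 RPKM. Phosphomevalonate kinase (Pmvk) had 2059 reads in ZOL and 2 in ZOL+Ang2 (50.8 against 0.0995 RPKM), and mevalonate kinase (Mvk) 4.01 RPKM against 0 reads. Of the enzymes that attach or process isoprenoid tails, Rce1 went from 25.7 RPKM to 0 reads and Pggt1b from 6.5 to 0.156, while Fntb, the beta chain of farnesyltransferase, was the higher gene with 5.63 against 13.2 RPKM and its partner Fnta had 10.4 against 16.2 RPKM. The Rab proteins, which carry such tails, held 8 higher and 15 lower of 43 genes compared (18.6% and 34.9%, close to the shares of all genes), with Rab7 and Rab11a level at 37.5 against 41.2 RPKM and 44.3 against 48.7 RPKM and Rab4a and Rab35 at 14.9 and 12.3 RPKM against 0 reads.

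Sterol genes held 4 higher and 6 lower of 26. Squalene synthase (Fdft1), the first step from farnesyl diphosphate to sterol, went from 37 to 0.121 RPKM (306-fold lower, 95% interval 140.3 to 834), and the later enzyme Cyp51 was higher at 6.44 against 30.9 RPKM. Apolipoprotein E (Apoe), secreted by macrophages and stroma, had 266 RPKM in ZOL and 770.3 in ZOL+Ang2. In glycolysis 14 of 23 genes were within 2-fold, among them Pkm, Aldoa and Ldha at 306 against 354 RPKM, 279 against 249 RPKM and 249 against 191 RPKM, while Ldhb went from 21.2 to 0.109 RPKM and the lactate exporter Slc16a3 from 0 reads to 21.2 RPKM. Hif1a and its target Bnip3 were lower at 17.6 against 3.73 RPKM and 6.36 against 0 RPKM, and the target Car9 was level at 12 against 11.8 RPKM. Among fatty acid genes (5 higher and 8 lower of 29, or 17.2% and 27.6%), the oxidation enzymes Cpt1a and Acaa2 went opposite ways with 8.8 against 0.258 RPKM and 7.64 against 83.5 RPKM. Of antioxidant genes 23 of 35 were within 2-fold. The secreted peroxidase Gpx3 had 136 against 569.8 RPKM (4.2-fold higher, 95% interval 4.07 to 4.33) and Hmox1, which breaks down haem, 16.6 against 42.9 RPKM, and Gstm1 went from 55.3 RPKM to 0 reads. Ferritin heavy chain (Fth1) had 4150.0 against 4458 RPKM. In the lysosome list 31 of 48 were within 2-fold, and the cathepsins Ctss and Ctsc, abundant in myeloid cells, were the highest at 20.4 against 209.8 RPKM and 5.83 against 71.7 RPKM, whereas the inhibitor cystatin C (Cst3) was lower at 1363 against 533 RPKM.

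Genes that every cell uses lay mostly within 2-fold, as did most abundant genes of any function. Among all genes compared, 26.0% lay past 2-fold in the class with a mean from 30 to 100 RPKM. The share was 9.56% in the class that starts at 100 RPKM and 14.5% in the highest class. Whether the lists below differed from other genes of like level was not tested. Of 81 cytosolic ribosomal protein genes compared 77 were within 2-fold (median 0.14), as were 67 of 75 nuclear genes of oxidative phosphorylation (0.01), 31 of 37 proteasome subunits (-0.14) and all 13 mitochondrially encoded genes (-0.20). Eef1a1, Rps29 and Rpl36 differed by less than 1.1-fold, at 2206 against 2072 RPKM, 964 against 983 RPKM and 1113 against 1086 RPKM. Even here single genes stood apart. Rpl7a had 127 against 44.2 RPKM, and of 77 mitochondrial ribosomal protein genes 6 were higher and 18 lower, among them Mrpl46 at 35.1 against 0.121 RPKM and Mrpl17 at 14.8 RPKM against 0 reads. Gapdh was listed at only 2.49 against 2.99 RPKM, a gene with many processed copies in the mouse genome that can share its reads.

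The most abundant named genes overlapped between the libraries. In ZOL they were Lgals1 (galectin-1, 5426 RPKM), Fth1, B2m, Eef1a1, S100a6, Rpl41, Actb and Rplp1, and in ZOL+Ang2 Hba-a1 and Hbb-bs headed the list, followed by Lgals1 (5910.2 RPKM), Fth1, Spp1, B2m, Eef1a1 and Actb. Of 361 genes whose mean reached 100 RPKM, 265 (73.4%) lay within 1.5-fold, 25 were at least 2-fold higher and 15 lower. Besides the globins, collagens, alarmins and protease inhibitors above, the higher ones included Gm10800, an unnamed gene model and the most abundant gene in both libraries, with 9389 against 34594 RPKM. The unnamed models Gm21738, Gm10801 and Gm10722 were also higher, at 977 against 3023 RPKM, 312 against 1692 RPKM and 146 against 563 RPKM. The lower ones included Cldn5, Slc2a1 and Id1 named above, the endothelial adhesion molecule Esam with 141 against 64.6 RPKM, the lipocalin Apod with 199.9 against 89.2 RPKM, the interferon-induced Ifi27 with 182 against 70.3 RPKM and the secreted protein Lrg1, which acts on endothelial TGF-beta signalling, with 404 against 196 RPKM.

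The lowest ratios of single genes came from varied functions. After Chgb came the myosin light chain Myl9, Gadd45g, Grrp1 (87.3 against 0.134 RPKM), the ubiquitin-like Ubd, Gstm1, the acute phase inhibitor Serpina3n and Vtn, then Pmvk, Crcp, Atf3, the opioid precursor Penk, Pop7, Pcna and Ngdn. Of these 15 genes, 11 had 0 reads in ZOL+Ang2 after between 1046 (Pop7) and 6755 (Chgb) reads in ZOL. By counting error alone Serpina3n was at least 438-fold lower and Pop7 at least 173-fold lower.

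**Figure D5:**
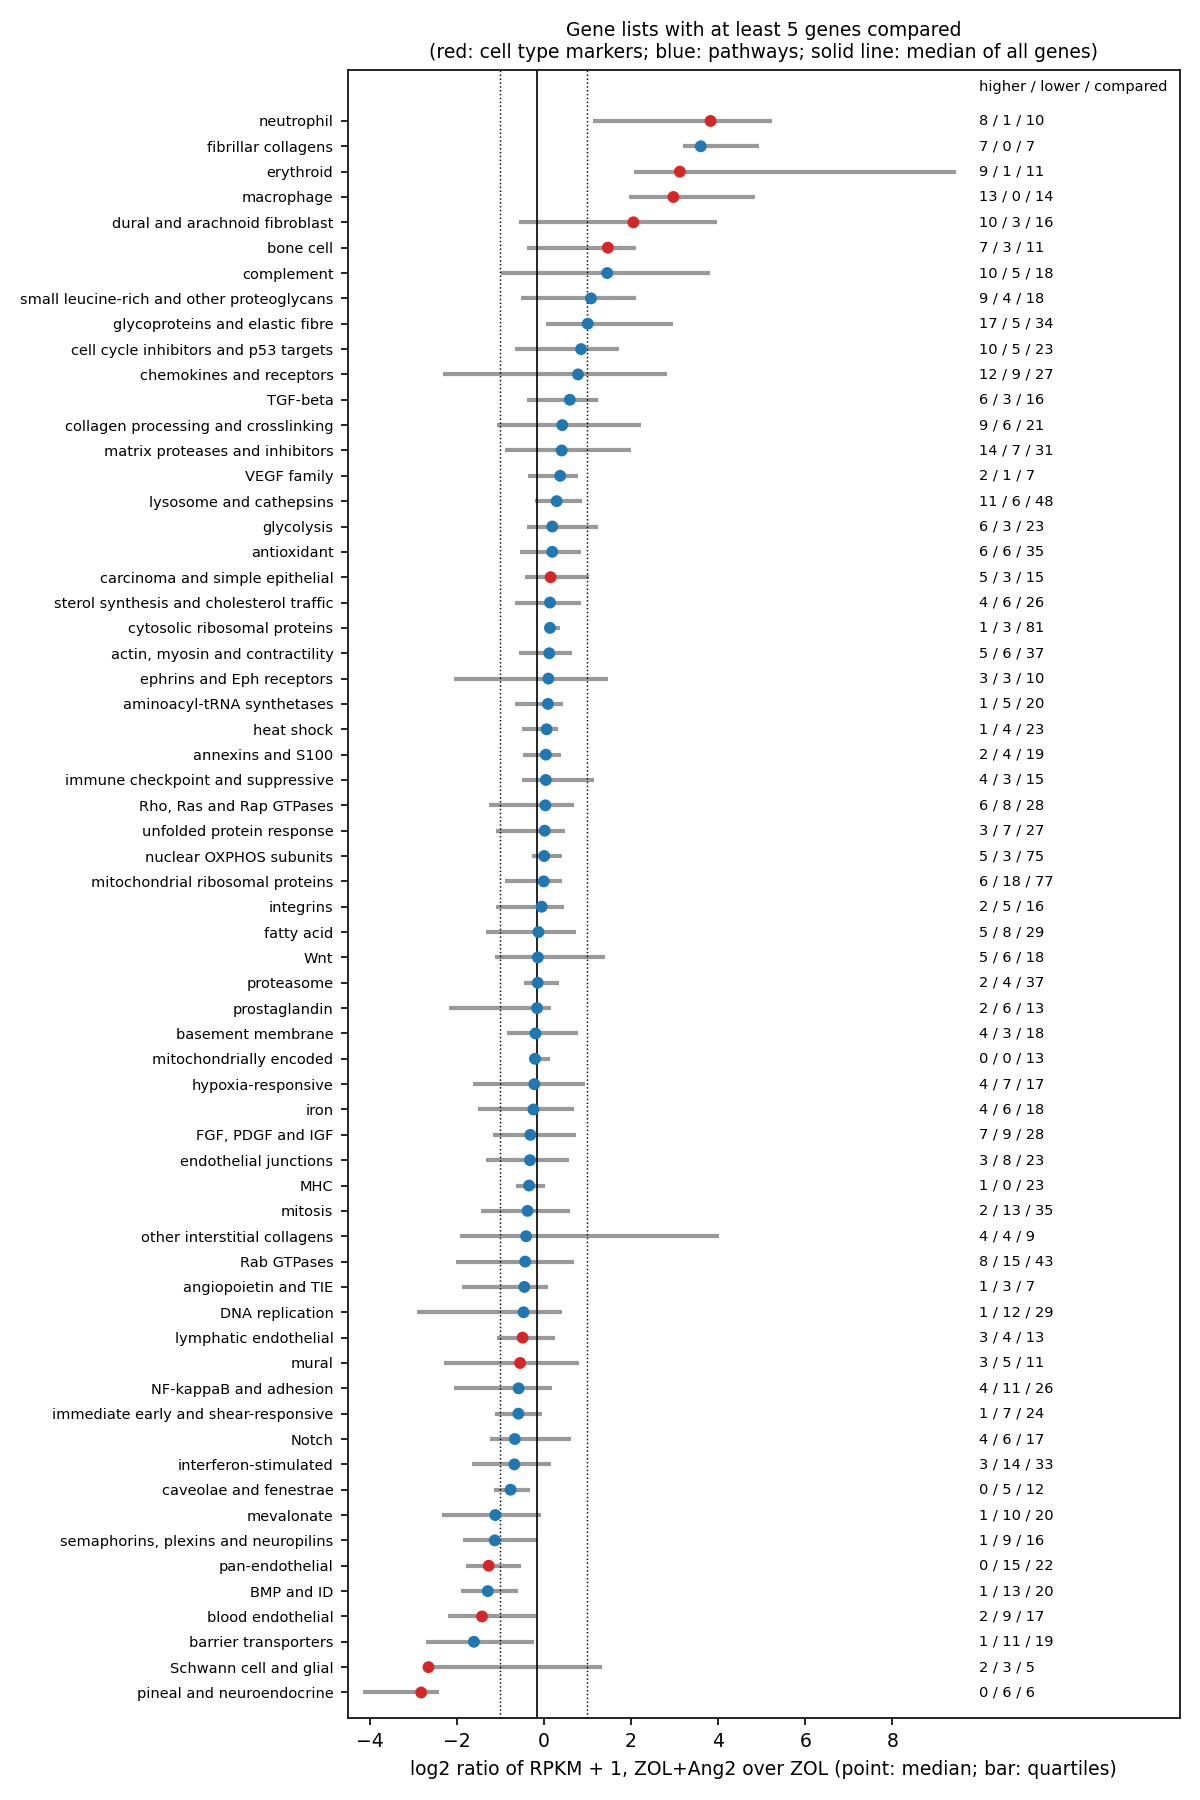
Each row is a list of genes with at least 5 members compared. The point is the median and the bar the quartiles of the log2 ratio of RPKM + 1 (x axis), red for cell type markers and blue for pathways, with counts of genes higher, lower and compared at the right. The solid line is the median of all genes at -0.15 and the dotted lines are 2-fold. Neutrophil, collagen, erythroid and macrophage lists stand at the top and pineal, glial, barrier transporter, blood endothelial, BMP and pan-endothelial lists at the bottom.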

How the data were processed

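RNA of cells labelled CD45-CD31+PDPN+ was sequenced as 1 library per group, each from 6 pooled mice. Per the labels' protocols, full-length mRNA was amplified before library preparation. The submitters' processing notes name fastp, HISAT2 2.2.1, featureCounts 2.0.6 and mm10. The sources used here do not give their order, the annotation release or the strand setting. The deposited values are taken as RPKM computed by the authors, because multiplying by GENCODE M21 exon lengths gave whole multiples of 1 step per library (tolerance 0.01) for 96.4% of the values in ZOL and 96.2% in ZOL+Ang2. RPKM cannot be told from FPKM here. Values scaled so that each library has the same sum (TPM) would give whole multiples too, so the unit is an inference. In the PBS library, left out here, the recovered reads (1675532) exceeded the total implied under RPKM (1120319). For the libraries compared the steps gave 16586760 reads in ZOL and 9204901 in ZOL+Ang2, used only for intervals, floors and thinning.

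Protein-coding genes of at least 1 RPKM in either library were compared with a pseudocount of 1 RPKM and no further scaling, in Python 3.11.15 with numpy 2.4.6, pandas 2.3.3, scipy 1.17.1 and matplotlib 3.10.9. With 1 library a group, no test was run. The interval calculation was tested on simulated data. Reads cannot be assigned with certainty between near-identical copies or overlapping genes. Members and the 71 gene lists were chosen with earlier results of these data known. Leaving out unnamed models, chemoreceptors and receptor segments, genes were named as the 15 highest and 15 lowest ratios, the 8 most abundant in each library, the 6 most abundant listed at 0 in the other library, the 6 most abundant within 1.1-fold, up to 3 highest, 3 lowest and 2 most abundant of each list, and the marker and pathway genes Ptprc, Pecam1, Pdpn, Prox1, Lyve1, Flt4, Tek, Tie1, Angpt1, Angpt2 and Fdps. Other genes named were chosen after their values were seen. Some genes that the rule names are not reported here. Alternatives changed the pseudocount, the filter, the scaling, the fold called and the depth of ZOL.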

Additional observations from a re-analysis of the deposited data

How the results depend on the processing

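The number of genes at least 2-fold higher (2299) and of genes at least 2-fold lower (3563) depended on how low values were treated. They became 980 and 1238 with a pseudocount of 5 RPKM, 1509 and 1666 with at least 5 RPKM in either library, 613 and 483 with a mean of at least 10 RPKM, and 778 and 1483 at a 4-fold call. The percent higher of genes past 2-fold, 39.2%, became 55.9% with a mean of at least 10 RPKM. The median log2 ratio of the list semaphorins, plexins and neuropilins turned from -1.13 to 0.46 under that same filter. Of 68 list medians, 20 were at or past 1 log2 unit, of which 19 kept their sign and 8 stayed past 1 in all alternatives run. Of 38 named genes past 1 log2 unit, all 38 kept their sign and 34 stayed past 1. Most of these 38 were picked as the highest or lowest ratios in these same data, so a change of sign was unlikely from the start. The count does not cover the many other genes named in the results. Scaling to equal totals without mitochondrial and haemoglobin genes (factor 1.19) moved the median of all genes from -0.15 to -0.38, while the TMM factor was 1.03 and the median of ratios 1.02. Such totals still held the unnamed model Gm10800, at 9389 RPKM in ZOL and 34594 in ZOL+Ang2. No paired analysis was possible because each group was 1 library, and no library could be left out. At this depth a listed 0 does not show absence.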

Other observations

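Long non-coding and other non-coding genes of at least 1 RPKM in either library were set side by side in the same way. Of 456 lincRNA genes, 211 were at least 2-fold higher in ZOL+Ang2 and 178 lower, and of 279 antisense genes 98 were higher and 145 lower. Without a stated strand setting, reads of an antisense gene and its partner cannot be told apart. The nuclear RNAs Malat1 and Neat1 stood at 26 RPKM in ZOL and 48.5 in ZOL+Ang2 and at 7.92 RPKM in ZOL and 9.82 in ZOL+Ang2. The imprinted RNA H19 was nearly level, with 24.1 RPKM in ZOL and 25.6 in ZOL+Ang2. Bvht was listed at 38.2 RPKM in ZOL and 0 in ZOL+Ang2. The snoRNA hosts Gas5 and Snhg6 had 18.2 RPKM in ZOL and 25.2 in ZOL+Ang2 and 13.5 RPKM in ZOL and 26.9 in ZOL+Ang2. AW112010, an interferon-responsive RNA, had 50.7 RPKM in ZOL and 103 in ZOL+Ang2.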
